A study of Mus musculus with 3 samples.

Results

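The nuclear genes of the mitochondrial respiratory chain and of ATP synthase were followed through 3 mouse liver libraries. Members were taken by symbol: the numbered Nduf genes of the a, b, c, s and v series with Ndufab1, the 4 Sdh genes, all Uqcr genes, the Cox4 to Cox8 genes whose number is followed by a, b or c, and all Atp5 genes. This gave 83 of the 23356 different symbols in the tables, 38 in complex I, 4 in complex II, 8 in complex III, 16 in complex IV and 17 in complex V. All 83 had an estimate in every library. Of these, 73 are subunits used in liver. The other 10 (Ndufa4l2, Cox6a2, Cox6b2, Cox7a1, Cox7a2l, Cox7b2, Cox8b, Cox8c, Atp5s and Atp5sl) are known as isoforms of other tissues or as proteins that are not subunits.

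Each group was a single library of total RNA from liver, depleted of ribosomal RNA, from mice aged 16 weeks on a C57BL6J/FVB background. Wildtype mice on the ad libitum diet are called wt AL, Ercc1 delta/- mice on the same diet Ercc1 AL, and Ercc1 delta/- mice under diet restriction Ercc1 DR. Both mutant groups thus carry the same genotype, and a wildtype library under diet restriction was not analysed here. ERCC1 is a subunit of a DNA repair endonuclease. The labels do not give the sex of the mice or how many went into a library.

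The respiratory chain passes electrons from NADH through complex I, or from succinate through complex II, to ubiquinone, then through complex III and cytochrome c to complex IV, where oxygen is reduced. Complexes I, III and IV pump protons, and complex V, the ATP synthase, uses their return to make ATP. The subunits come from nuclear genes and, except for complex II, from mitochondrial DNA as well. Liver, whose hepatocytes are rich in mitochondria, relies on the chain for the energy that glucose and urea synthesis consume.

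Levels are in FPKM, the deposited fragments per transcript length and library total, and in sentences with 3 levels these stand in the order wt AL, Ercc1 AL, Ercc1 DR. The libraries differed in their general level. For the median gene of 9109 that reached 1 FPKM everywhere, the level was 1.41-fold higher in Ercc1 AL than in wt AL, 1.26-fold higher in Ercc1 DR than in Ercc1 AL and 1.72-fold higher in Ercc1 DR than in wt AL. A ratio below is therefore the log2 ratio of FPKM + 1 after this median had been taken out, over genes with at least 1 FPKM in either library, unless it is called as deposited; the added 1 understates the change of low genes. With 1 library a group no spread between mice was measured, so no difference has a replicate check and "called" means at least 2-fold on this scale. The intervals deposited with the values imply 19.0 to 25.1 M fragments a library. For members with at least 20 FPKM they reached a median of 7.47%, 5.42% and 4.25% of their midpoint to either side, which covers the counting and assignment of fragments in 1 library only.

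Defining hepatocyte markers were present in all libraries, 9 of 9 with an estimate at or above 1 FPKM, and Alb had no estimate. Their summed level was 4151, 4445 and 8945 FPKM, highest in Ercc1 DR like most members, and its part in the results was not tested. The markers did not all follow the sum. By ratio, 8 were above 0 and 1 below in Ercc1 DR against Ercc1 AL. In Ercc1 DR against wt AL 7 were above 0 and 2 below, 1 of these at least 2-fold lower. In a whole tissue, fewer cells of a type and less RNA per cell cannot be told apart.

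As deposited, 75 of the 83 members were highest in Ercc1 DR, and 68 stood in the order wt AL, Ercc1 AL, Ercc1 DR from low to high. Summed over members the level was 2402, 3155 and 6204 FPKM. The 8 exceptions were Atp5g1, Atp5g2, Cox6a2 and Cox8c, highest in wt AL, and Atp5e, Cox6b2, Cox8b and Ndufa4l2, highest in Ercc1 AL. The 5 most abundant members by mean were Ndufa4, Atp5b, Uqcrq, Cox6a1 and Cox6b1. Between Ercc1 AL and wt AL the deposited intervals did not overlap for 61 of 83 members. In each of the comparisons with Ercc1 DR this held for 78 of 83. The general shift in level is part of those differences. The share over all genes was not computed, so nothing about the members is read from these counts.

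**Figure D1:**
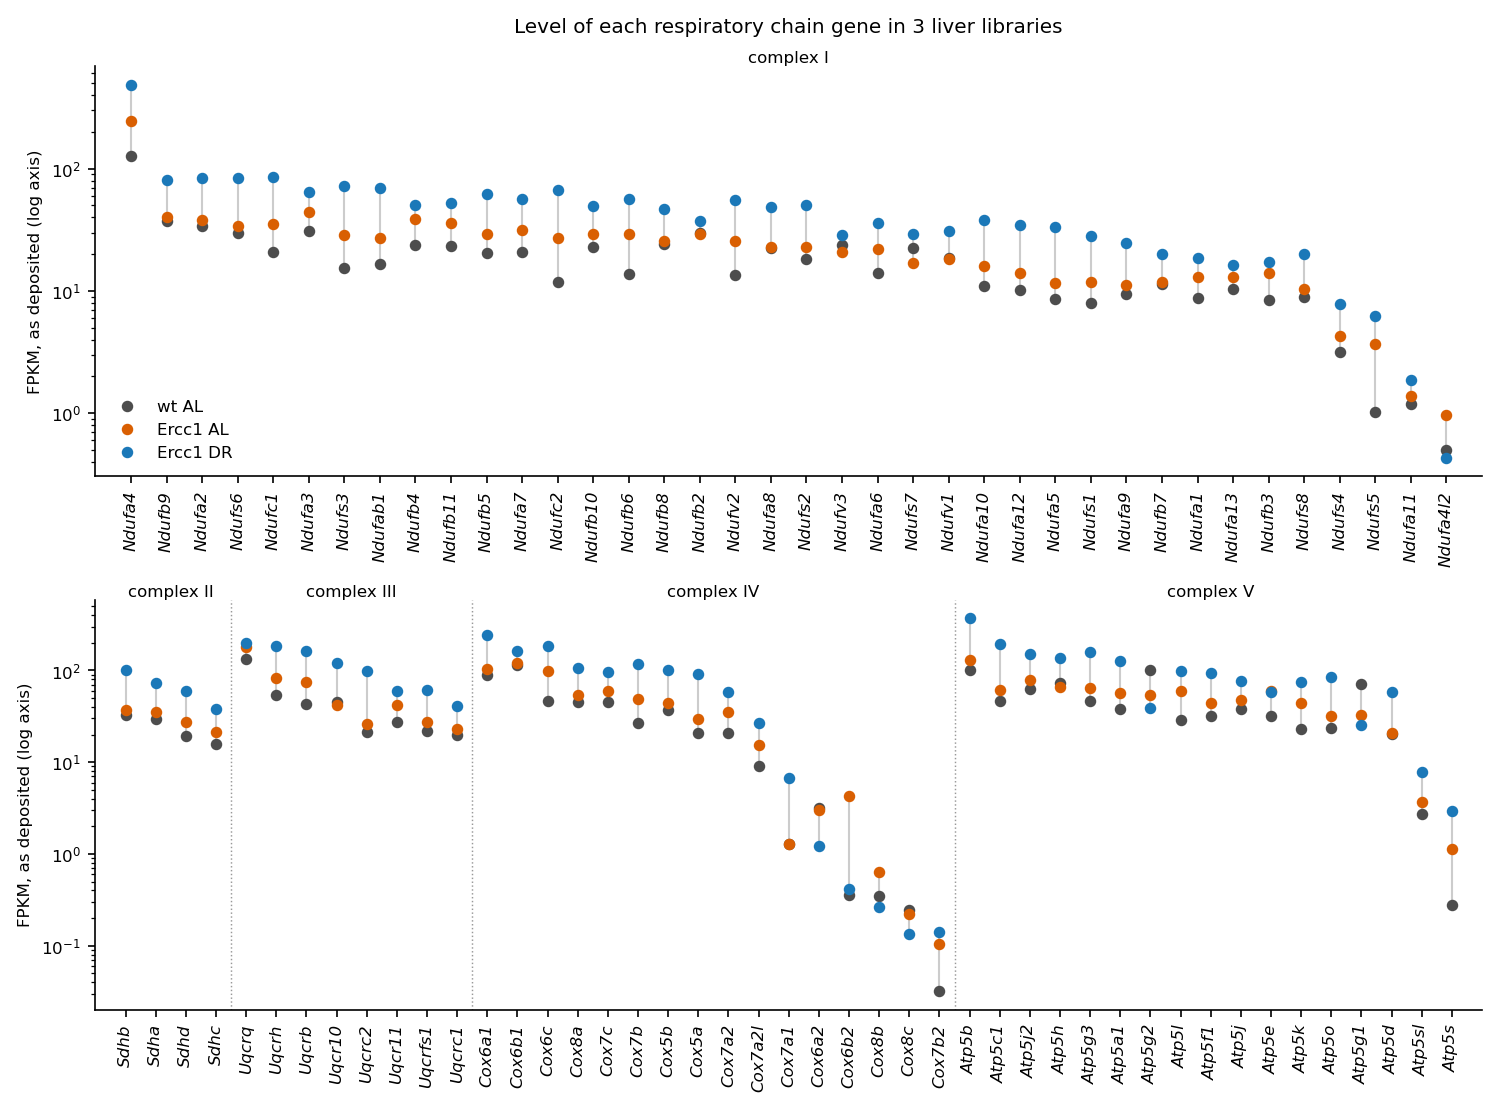
Deposited FPKM of each of the 83 members (log axis), with 1 point per library and a grey line over their range; complex I is in the upper panel and complexes II to V in the lower, each in falling order of mean FPKM. The Ercc1 DR points lie on top for 75 members, while Atp5g1 and Atp5g2 run the other way.

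Between the mutant and the wildtype under free feeding, the chain as a whole stood at the level of other genes. Of 79 members measured, 1 was at least 2-fold higher, the testis isoform Cox6b2, against 2.35% of all 12359 genes, and 2 were at least 2-fold lower, Atp5g1 and Atp5g2, against 4.9% of all genes. Cox6b2 passed the 1 FPKM minimum only through Ercc1 AL, where it was high, so nothing is read from its call. The members' median ratio was -0.06, and that of all genes 0.01. As deposited 6 members were higher, against 5.8% of all genes, and 1 was lower, against 2.2%, with a median of 0.42 beside 0.34 for all genes. Of 59 members with at least 20 FPKM in either library none was at least 2-fold higher, and among genes with official symbols at that level 3.31% were.

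Between the restricted and the freely fed mutant, most members were higher by less than 2-fold. The median ratio was 0.64, against -0.06 for all 12361 genes, and 71 of 79 members were above 0. On the 2-fold threshold 11 were higher, against 3.12% of all genes: Ndufa5, Ndufab1, Sdhb, Uqcrc2, Uqcr10, Cox5a, Cox7a1, Atp5b, Atp5c1, Atp5d and Atp5o. Cox6a2 and Cox6b2 were at least 2-fold lower, beside 12% of all genes. Here too Cox6b2 passed the 1 FPKM minimum only through Ercc1 AL, so nothing is read from its call. As deposited 37 members were higher, against 6.5% of all genes, and 1 was lower, against 8.71%. Of the official symbols that reached 20 FPKM in 1 library or both, 15.4% were at least 2-fold higher, beside 10 of 68 members, with median ratios of 0.37 and 0.70. Genes and members can pass this minimum through Ercc1 DR alone, because they are high there, so these shares and medians are partly set by it and nothing is read from them.

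The comparison of Ercc1 DR with wt AL uses libraries of both comparisons above and adds no independent one. Its median was 0.65 over 78 members, against -0.03 over 12127 genes. At least 2-fold higher were 19 members, against 6.02% of all genes, and 3 were lower (Atp5g1, Atp5g2 and Cox6a2), against 16.4%. Without the members that share at least 20% of their 50-mers (stretches of transcript sequence) with other genes, 11 of 59 were higher, against the same 6.02%. As deposited the counts were 62 higher, against 24% of all genes, and 2 lower, against 8.63%. Of 68 members with at least 20 FPKM, 16 were higher, beside 23.4% of official symbols at that level, with medians of 0.67 and 0.43, and the same limit of the minimum holds.

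**Figure D2:**
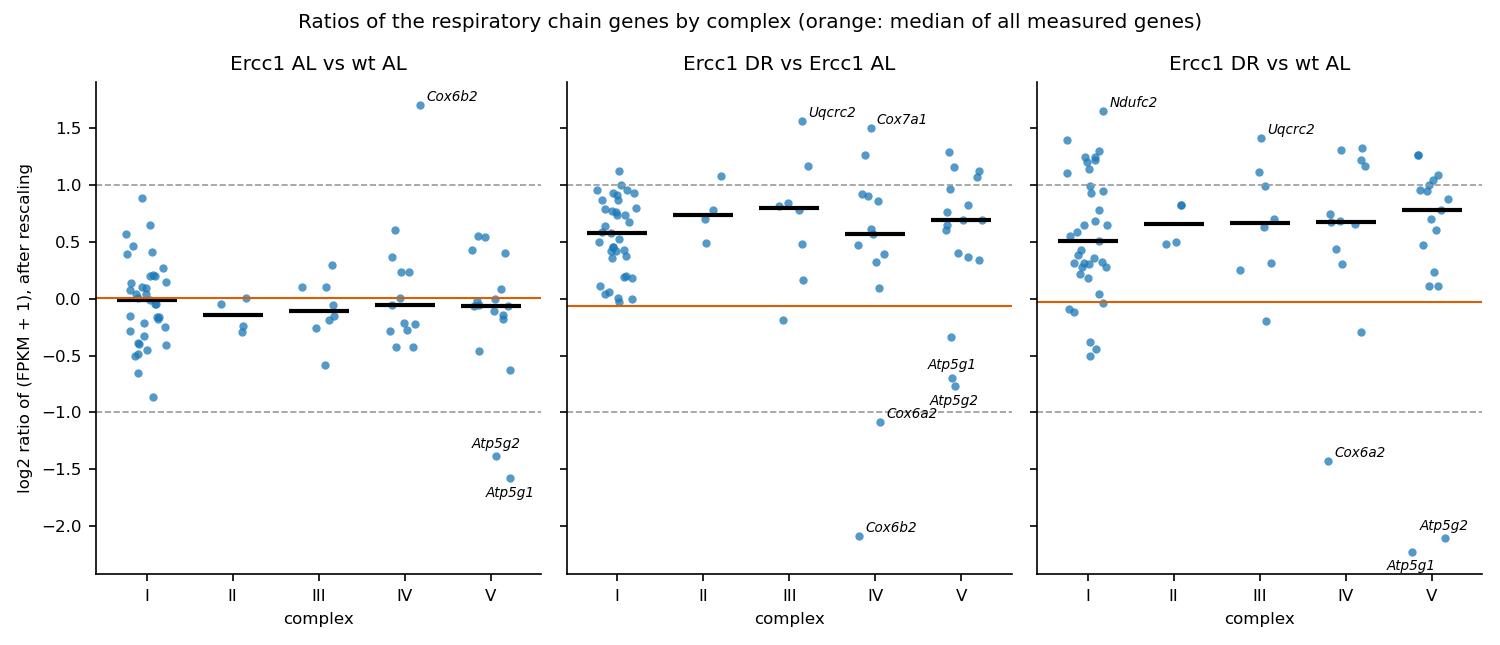
Log2 ratio of each measured member by complex in the 3 comparisons, after rescaling; black bars are the complex medians, dashed lines the 2-fold thresholds and the orange line the median of all measured genes. All 5 complex medians are between -0.15 and -0.01 for Ercc1 AL against wt AL and between 0.57 and 0.80 for Ercc1 DR against Ercc1 AL.

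Complex I, the NADH dehydrogenase, had a median ratio of -0.01 in Ercc1 AL against wt AL over 37 measured members, with none past 2-fold. In Ercc1 DR against Ercc1 AL the median was 0.58, with 2 members at least 2-fold higher and 35 above 0, and in Ercc1 DR against wt AL it was 0.50 with 9 higher. Ndufa5, an accessory subunit of the arm that reduces ubiquinone, was at 8.53, 11.6 and 33.1 FPKM, a ratio of 1.12 between the mutants. Ndufab1, the acyl carrier protein of mitochondria, was at 16.6, 27.0 and 69.3 FPKM, a ratio of 1.003. Its call was kept in 5 of 7 alternatives, and the ratio was 0.94 with the scale set on official symbols and 0.97 on interval midpoints. Both were lowest in wt AL, and their larger step was the one to Ercc1 DR.

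The members of complex I did not move as a block. Ndufs7, a core subunit that holds the last iron-sulfur cluster before ubiquinone, was at 22.5, 16.8 and 29.4 FPKM, and had the lowest ratio of the complex in Ercc1 AL against wt AL, -0.87. Ndufv3, an accessory subunit of the NADH-binding arm, was at 23.9, 20.97 and 28.6 FPKM (-0.65), and it was also the lowest of the complex in Ercc1 DR against wt AL, -0.50. At the other end Ndufc2, of the membrane arm, was at 11.9, 27.0 and 67.1 FPKM, with ratios of 0.65 against wt AL in Ercc1 AL and 1.65 in Ercc1 DR. Ndufb6, also of the membrane arm, was at 13.8, 29.4 and 56.3 FPKM, with 0.57 and 1.204 in the same comparisons. It shares 34.1% of its 50-mers with Smim27. Ndufs7 and Ndufv3 were thus lowest in Ercc1 AL, while Ndufc2 and Ndufb6 were lowest in wt AL.

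Ndufs3, a core subunit of the ubiquinone-reducing arm, stood at 15.4, 28.9 and 72.0 FPKM and had the second-highest ratio to wt AL, 1.398. By contrast Ndufb2 was at 29.5, 29.4 and 37.1 FPKM, below the general shift, with -0.44 against wt AL. Ndufb3 (8.51, 14.0 and 17.2 FPKM) and Ndufa13 (10.4, 13.1 and 16.4 FPKM) had ratios of -0.03 and -0.01 between the mutants, the lowest of the complex. Ndufs5, counted at 1.02, 3.66 and 6.23 FPKM, shares 41.2% of its transcript's 50-mers with BC002163, so its level is uncertain. With other genes Ndufs3 shares 39.7%, Ndufb2 33.5% and Ndufa13 28.5%, so the same limit holds for them.

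By the arms of complex I, the 10 genes of the NADH-oxidising module had a median of 0.63 in Ercc1 DR against Ercc1 AL with 0 past 2-fold, the 6 of the ubiquinone-reducing module 0.78 with 1, and the 20 of the membrane arm 0.42 with 1. The 7 nuclear core subunits, conserved from bacteria, had a median of 0.76 and none past 2-fold. Ndufa4 was the most abundant member, at 127, 247 and 483 FPKM, with ratios of 0.46 between the freely fed groups and 0.64 between the mutants. Its symbol places it in complex I, although its protein has since been assigned to complex IV. Its relative Ndufa4l2 did not reach 1 FPKM in any library.

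Complex II, the succinate dehydrogenase shared with the citric acid cycle, had 4 members that all lay above 0 between the mutants, with a median of 0.74. Sdhb, its iron-sulfur subunit, was at 32.7, 37.4 and 101 FPKM and was the 1 member past 2-fold, at 1.08. Sdha, the flavoprotein that oxidises succinate, was at 29.9, 35.3 and 72.9 FPKM (0.70). The membrane anchors Sdhc (15.7, 21.4 and 38.3 FPKM) and Sdhd (19.2, 27.2 and 59.6 FPKM) were at 0.49 and 0.78. All 4 were highest in Ercc1 DR, and their median in Ercc1 AL against wt AL was -0.15 with none past 2-fold.

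Complex III, which passes electrons from ubiquinol to cytochrome c, had medians of -0.11, 0.80 and 0.66 in Ercc1 AL against wt AL, Ercc1 DR against Ercc1 AL and Ercc1 DR against wt AL, with 0, 2 and 2 of 8 members at least 2-fold higher. Uqcrc2, a core subunit, was at 21.3, 26.2 and 99.5 FPKM and had the highest ratio between the mutants of all 79 members measured, 1.56. It overlaps the antisense gene Pdzd9, which was under 1 FPKM in every library. Its partner Uqcrc1 was at 19.98, 23.2 and 41.2 FPKM, a ratio of 0.48, so that the core pair was nearly level in the freely fed libraries and apart in Ercc1 DR.

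The small subunits of complex III spread as widely. Uqcr10 was at 45.1, 42.0 and 120 FPKM (1.17 between the mutants), the lowest of the complex in Ercc1 AL against wt AL at -0.58. Uqcrq, which sits beside cytochrome b and was the most abundant of the complex, was at 134, 181 and 200 FPKM and had a ratio of -0.18. Uqcr11 was at 27.7, 42.0 and 59.4 FPKM (0.16), and Uqcrb at 43.2, 74.9 and 162 FPKM (0.78). Uqcrb shares 43.4% of its 50-mers with other genes. The remaining Uqcrh and the Rieske iron-sulfur protein gene Uqcrfs1 had ratios of 0.84 and 0.81. Cyc1, the cytochrome c1 gene that the symbol rule leaves out, was at 13.9, 17.9 and 37.2 FPKM and had a ratio of 0.69, inside the range of its complex.

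Complex IV, cytochrome c oxidase, had medians of -0.06, 0.57 and 0.68 in the same order of comparisons. Of 13 members measured between the mutants 2 were at least 2-fold higher and 2 lower, and 3 of these 4 are isoforms known from other tissues. Cox5a, a liver subunit, was at 20.9, 29.5 and 90.8 FPKM, with a ratio of 1.27, whereas Cox5b was at 36.7, 44.2 and 102 FPKM with 0.86. With other genes Cox5a shares 32.0% of its 50-mers, Cox5b 25.9% and Cox6c, given next, 21.1%. Cox6c (46.1, 99.1 and 186 FPKM) and Cox7b (26.7, 48.8 and 117 FPKM) had the highest ratios among well-expressed members of the complex in Ercc1 AL against wt AL, 0.60 and 0.37, and in Ercc1 DR against wt AL they stood at 1.22 and 1.33. Cox7c, at 44.8, 60.4 and 95.6 FPKM, had 0.32 between the mutants, and it shares 53.0% of its 50-mers with other genes, among them Gm10012. Cox4i1, left out by the rule, was at 63.3, 66.8 and 163 FPKM, a ratio of 0.94.

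Isoform pairs of complex IV kept the liver form in the lead. Cox6a1 was at 88.9, 103 and 242 FPKM and the muscle form Cox6a2 at 3.19, 3.04 and 1.21 FPKM, so the share of Cox6a2 in the pair was 3.46%, 2.87% and 0.496%. Cox6a2 overlaps the antisense gene Itgad, and its calls were kept in 4 of 6 alternatives in each comparison with Ercc1 DR. Cox6b1, at 116, 121 and 162 FPKM, had a ratio of 0.09 between the mutants. The testis form Cox6b2 was at 0.354, 4.305 and 0.417 FPKM, high only in Ercc1 AL, with ratios of 1.71 and -2.09. The 5 testis markers summed to 4.25, 27.5 and 7.45 FPKM, nearly all of it Tnp1 at 2.65, 25.3 and 6.52 FPKM, and 1, 2 and 1 of them reached 1 FPKM; their part in the result was not tested.

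Cox7a1, the heart and muscle form of Cox7a, was at 1.29, 1.29 and 6.65 FPKM, a ratio of 1.499 in Ercc1 DR against Ercc1 AL. The 9 muscle markers summed to 17.8, 26.9 and 16.7 FPKM, most of it from Mylpf at 5.94, 13.2 and 4.64 FPKM and Acta1 at 6.86, 4.38 and 8.33 FPKM. Acta1 was highest in Ercc1 DR like Cox7a1, Mylpf was highest in Ercc1 AL, and the part of muscle RNA in the result was not tested. The liver form Cox7a2 was at 20.9, 34.9 and 58.2 FPKM and the supercomplex factor Cox7a2l at 9.08, 15.2 and 27.0 FPKM, so Cox7a1 made up 4.14%, 2.51% and 7.24% of the 3. Cox8a was at 45.1, 54.3 and 105 FPKM, while Cox8b, Cox8c and Cox7b2 stayed under 1 FPKM in all libraries.

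Complex V, the ATP synthase, had medians of -0.06, 0.69 and 0.78, with 0 of 17 members at least 2-fold higher and 2 lower in Ercc1 AL against wt AL, 4 and 0 in Ercc1 DR against Ercc1 AL, and 4 and 2 in Ercc1 DR against wt AL. Among the 4 higher against wt AL was Atp5s, which is not a subunit, at 0.277, 1.12 and 2.97 FPKM. In that comparison Atp5s passed the 1 FPKM minimum only through Ercc1 DR, so nothing is read from its call. The 5 genes of the catalytic head and central stalk had a median of 1.12 between the mutants, the 4 of the peripheral stalk 0.73, and the 6 of the membrane part with the c ring 0.39. Atp5b, the catalytic beta subunit, was at 101, 131 and 371 FPKM (1.16), and Atp5c1, the gamma subunit of the rotor, at 46.0, 61.9 and 192 FPKM (1.29). Atp5a1, the alpha subunit, was at 38.2, 57.02 and 128 FPKM with 0.83. Atp5d, the delta subunit, was at 20.5, 20.7 and 58.0 FPKM (1.12), and the epsilon gene Atp5e was the exception, at 31.6, 59.2 and 58.7 FPKM with -0.34.

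Of the peripheral stalk, Atp5o was at 23.7, 31.7 and 85.4 FPKM with 1.07, and Atp5h, at 73.3, 66.3 and 136 FPKM, with 0.70. Atp5h shares 50.5% of its 50-mers with other genes. Atp5o shares 89.8% with other annotation entries, 49.5% with Donson and 40.3% with a second entry of its own symbol. Donson was under 1 FPKM in every library. In the membrane part Atp5l (29.0, 59.9 and 97.6 FPKM) and Atp5k (23.3, 44.6 and 74.6 FPKM) had the highest ratios among well-expressed members of the complex in Ercc1 AL against wt AL, 0.54 and 0.43. Atp5l shares 84.8% of its 50-mers with 14 other genes, so its level is uncertain. Neither of these was past 2-fold in any comparison after rescaling.

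The c subunit, which forms the rotating ring in the membrane, is encoded by genes that ran in opposite directions. Its 3 genes, Atp5g1, Atp5g2 and Atp5g3, encode the same mature protein behind different import peptides. Atp5g1 was at 71.3, 32.9 and 25.2 FPKM and Atp5g2 at 101, 53.6 and 39.2 FPKM, both highest in wt AL and lowest in Ercc1 DR. Atp5g3 was at 46.2, 64.7 and 160 FPKM, in the reverse order. Against wt AL, Atp5g1 had ratios of -1.58 in Ercc1 AL and -2.23 in Ercc1 DR, Atp5g2 -1.38 and -2.11, and Atp5g3 -0.00 and 0.999. Between the mutants the ratios of Atp5g1, Atp5g2 and Atp5g3 were -0.69, -0.77 and 0.96, but 0.82, 0.76 and 2.51 when scaled to summed FPKM, so the direction of Atp5g1 and Atp5g2 between the mutants depends on the scaling while their distance from Atp5g3 does not.

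The share of Atp5g3 in the summed level of the 3 genes was 21.1%, 42.8% and 71.3%. The sum itself was 218, 151 and 224 FPKM as deposited. The general shift against wt AL, 1.41-fold in Ercc1 AL and 1.72-fold in Ercc1 DR, is part of these sums. The similar sums of wt AL and Ercc1 DR therefore do not show an equal level. Atp5g3 shares 0% of its 50-mers with other genes, but Atp5g2 shares 87.4% with Gm10175, so the level of Atp5g2 is uncertain. Atp5g1 shares 11.6% with 366 other genes, counted on a transcript of 4715 bases. That transcript is longer than the deposited gene, which spans 2902 bases, so the share for the deposited gene is not known.

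**Figure D3:**
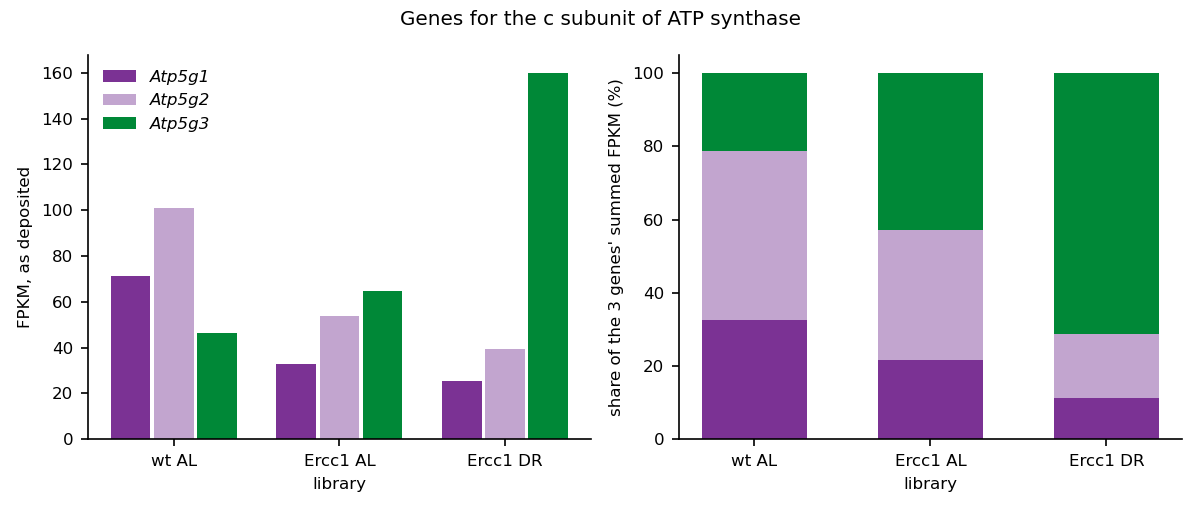
Left, deposited FPKM of the 3 c-subunit genes in each library (1 bar per gene and library); right, their shares of the summed FPKM in percent. The Atp5g3 share is 21.1% in wt AL, 42.8% in Ercc1 AL and 71.3% in Ercc1 DR.

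The promoter sequences of these 3 genes are shown because the genes code for one protein and yet ran in opposite directions, together with that of Atp5b, which led the complex in level. Each is the stretch before the RefSeq start (GRCm38.p6), 5′ to 3′ on the gene's strand, with matches to the motifs below in capitals. For Atp5g1 it ends where the deposited gene begins. The places are chr11:96075695-96075881 on the minus strand for Atp5g1, chr15:102671048-102671297 on the minus strand for Atp5g2, chr2:73911327-73911576 on the minus strand for Atp5g3 and chr10:128083057-128083306 on the plus strand for Atp5b.
Atp5g1: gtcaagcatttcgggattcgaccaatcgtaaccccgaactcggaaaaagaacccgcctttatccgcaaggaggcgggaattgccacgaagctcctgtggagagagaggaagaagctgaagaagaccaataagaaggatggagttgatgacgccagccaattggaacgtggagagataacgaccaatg
Atp5g2: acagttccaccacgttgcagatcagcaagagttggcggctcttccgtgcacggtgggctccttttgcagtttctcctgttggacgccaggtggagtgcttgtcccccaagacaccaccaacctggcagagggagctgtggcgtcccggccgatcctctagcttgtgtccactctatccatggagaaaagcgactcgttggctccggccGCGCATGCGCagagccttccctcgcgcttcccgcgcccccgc
Atp5g3: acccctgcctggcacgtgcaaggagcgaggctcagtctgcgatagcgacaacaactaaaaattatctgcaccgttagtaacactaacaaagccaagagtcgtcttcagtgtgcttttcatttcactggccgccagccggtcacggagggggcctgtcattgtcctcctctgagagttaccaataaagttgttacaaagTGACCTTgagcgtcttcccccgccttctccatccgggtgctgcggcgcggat
Atp5b: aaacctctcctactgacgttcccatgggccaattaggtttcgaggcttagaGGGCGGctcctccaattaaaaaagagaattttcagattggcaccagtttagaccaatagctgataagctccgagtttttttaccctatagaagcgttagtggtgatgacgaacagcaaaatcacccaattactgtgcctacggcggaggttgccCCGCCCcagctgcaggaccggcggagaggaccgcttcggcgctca
The capitals mark the NRF1 motif in Atp5g2, where it matches on both strands with overlap, the ESRRA motif on the opposite strand in Atp5g3, and the SP1 motif on each strand in Atp5b; Atp5g1 holds none of the 6 motifs searched. Atp5g2 also has an SP1 match after its start, outside the printed stretch.

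Promoters (250 bases before the start and 50 after it) were found for 70 of the 83 members among 32817 RefSeq promoters. Both strands were searched, and no motif contains the letters of another. The NRF1 motif GCGCATGC, of a regulator of respiratory genes, was in 14.3% of member promoters and 2.71% of all. The ETS motif CCGGAAG, which GABPA can bind, was in 21.4% and 8.86%, and the YY1 motif AAGATGGC in 14.3% and 2.74%. The ESRRA motif AAGGTCA was in 11.4% and 4.72%, the SP1 motif GGGCGG in 41.4% and 35.6%, and the TATA box TATAAA in 10% and 13.6%. Median GC content was 57.8% in member promoters and 52.7% in all. Members with the NRF1 motif had a median ratio of 0.39 in Ercc1 DR against Ercc1 AL over 10 genes, and those without it 0.64 over 58. For the ETS motif the medians were 0.59 and 0.64, and for YY1 0.63 and 0.60. For ESRRA they were 0.36 over 8 genes and 0.64 over 60, for the TATA box 0.42 over 5 and 0.64 over 63, and for SP1 0.64 and 0.61.

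The genes of the same pathway outside the rule were uneven. Of 16 measured citric acid cycle genes, 6 were at least 2-fold higher in Ercc1 DR than in Ercc1 AL and 0 lower, with a median of 0.84. Idh3a, of the NAD-dependent isocitrate dehydrogenase, was at 1.17, 5.41 and 23.4 FPKM (1.63), and Mdh2, the mitochondrial malate dehydrogenase, at 19.0, 24.8 and 89.5 FPKM (1.49). Cs, the citrate synthase gene, ran the other way, at 57.9, 44.3 and 35.3 FPKM, with -0.64 between the mutants and -1.46 in Ercc1 DR against wt AL. Electron carriers and other dehydrogenases that feed the chain had 1 of 9 higher, Sqrdl at 30.2, 42.5 and 137 FPKM (1.34), with a median of 0.60.

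The lists of assembly factors and of ubiquinone synthesis genes had lower medians between the mutants than the subunits. Outer membrane and import genes did not. Of 12 complex I assembly factors 1 was at least 2-fold higher between the mutants, Ndufaf6 at 4.04, 5.33 and 14.6 FPKM (1.01), and the median was 0.09. Of 10 assembly factors and regulators of complexes II, III and V 0 were past 2-fold (median 0.34). Of 13 complex IV genes outside the rule, mostly assembly factors but with the subunit gene Cox4i1 among them, 1 was past 2-fold. This was Sco2 at 6.28, 11.2 and 34.1 FPKM (1.21, median 0.26). Ubiquinone synthesis had 0 of 11 and a median of 0.20. Outer membrane and import genes had 3 of 12 and a median of 0.70, led by Timm23 at 16.7, 23.1 and 79.0 FPKM (1.41). Whether these medians differ from that of the subunits has no replicate check.

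Regulators of mitochondrial biogenesis had 1 of 15 at least 2-fold higher and 1 lower between the mutants, with a median of 0.28. Ppargc1a, the coactivator PGC-1alpha, was at 0.592, 0.811 and 3.20 FPKM (1.01), while Tfam, which packages and transcribes mitochondrial DNA, was at 37.4, 33.7 and 15.2 FPKM (-1.41). Ppargc1a passed the 1 FPKM minimum only through Ercc1 DR, where it was high, so nothing is read from its call. Ribosomal protein genes had medians of 0.33 over 50 mitochondrial and 0.34 over 57 cytosolic ones. The 13 subunits encoded by mitochondrial DNA were not analysed here.

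**Figure D4:**
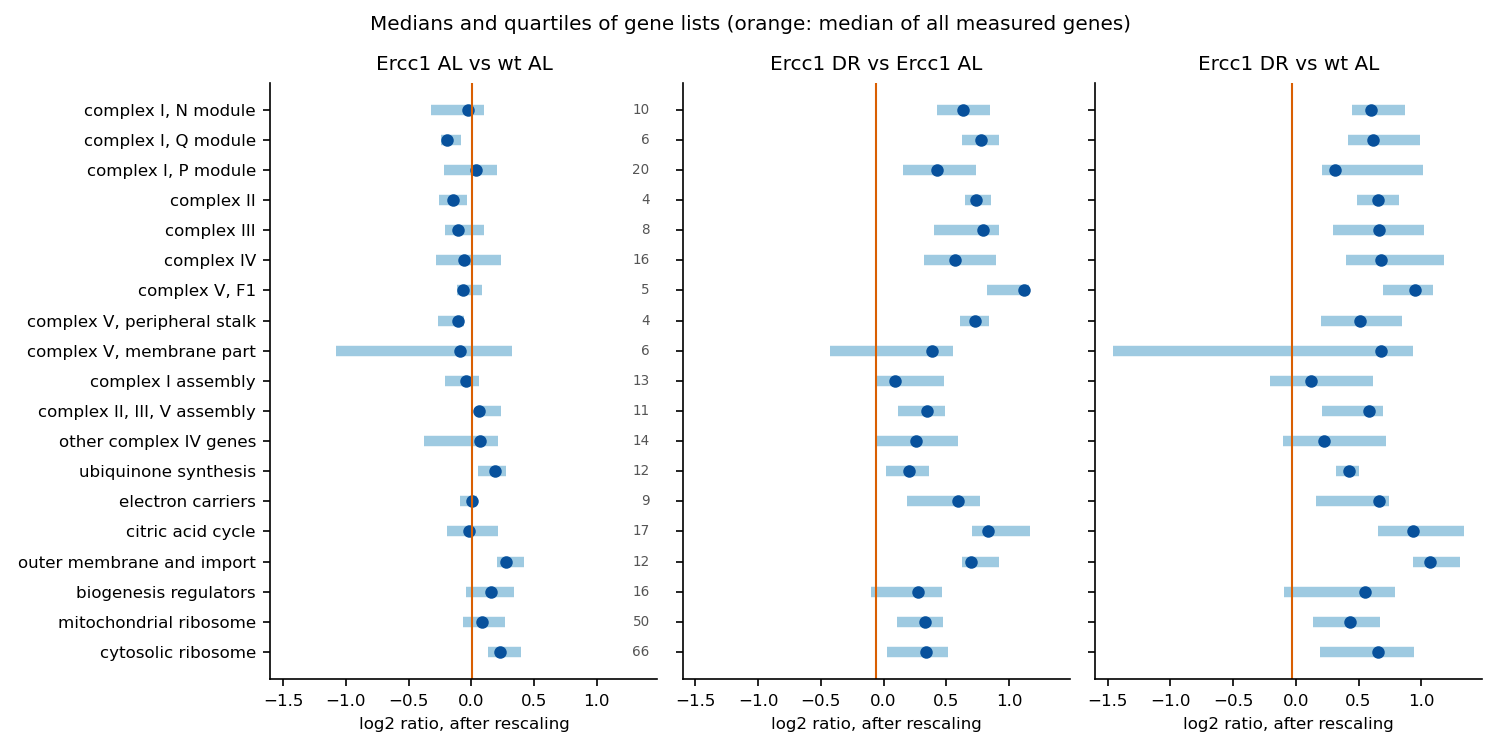
Median (point) and quartiles (bar) of the log2 ratio, after rescaling, for modules of the complexes and for related gene lists in the 3 comparisons; grey numbers give the genes of each list in the tables, and the orange line is the median of all measured genes. In Ercc1 DR against Ercc1 AL the list medians run from 0.09 for complex I assembly to 1.12 for the catalytic head and stalk of complex V.

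Members with a transcript at or under the median length of 763 bases had a median ratio of 0.45 in Ercc1 DR against Ercc1 AL over 39 genes, and longer ones 0.75 over 40. For 64, 65 and 66 of the 83 members the interval deposited beside the FPKM did not contain it, and the FPKM was above the interval's midpoint by a median of 1.30-fold to 1.31-fold, up to 2.91-fold. Levels of different members are therefore uncertain against each other. Among the 71 members that reached 5 FPKM everywhere this factor differed by at most 1.04-fold between libraries, so ratios are hardly touched. The part of length in the ratios was not tested.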

How the data were processed

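Total RNA of liver, depleted of ribosomal RNA, was sequenced from 3 libraries, 1 for each group, and groups follow the titles in the labels. The deposited tables give FPKM per gene with a lower and an upper bound and a status code, per the file headers. The genome build was mm10 per the submitters' processing notes; for the tool, the gene annotation and the use of strand, it is not given in the sources used here what the authors chose. Rows with status HIDATA or FAIL were missing, and of repeated symbols the row of highest mean FPKM was used for members and gene lists. The scale and the shares and medians of all genes were taken over all 23850 rows, repeated symbols included. Starts in the tables count from 0 and were raised by 1.

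Ratios were computed with python 3.11.15, numpy 2.4.6 and pandas 2.3.3 and drawn with matplotlib 3.10.9. For each pair, the median log2 FPKM ratio over 9109 genes was taken out, equally from both libraries, and a pseudocount of 1 FPKM added; the script was tested on simulated data. Called means at least 2-fold. With 1 library a group no test was made. Fragments implied by the deposited intervals (each bound as 2 SD) came to 19.0 M (wt AL), 25.1 M (Ercc1 AL) and 25.04 M (Ercc1 DR). Exon overlap, transcript length and shared 50-mers came from GENCODE annotation of GRCm38, and promoters from RefSeq on GRCm38.p6.

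The members and gene lists were chosen with earlier results of these data known. Named were, in each complex and comparison, the 2 highest and 2 lowest ratios among members with at least 5 FPKM, the 5 most abundant members, isoform families and, of other lists, those with the largest ratios. Genes named beyond these were chosen after their values were seen. Alternatives covered scaling, pseudocount, filter, interval midpoint, threshold and members left out. Marker lists for endothelial, Kupffer, stellate, bile duct, neutrophil, erythroid, lymphoid, muscle, fat and testis cells were summed.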

Additional observations from a re-analysis of the deposited data

How the results depend on the processing

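Counts below are members at least 2-fold higher or lower, in place of 1 and 2 (Ercc1 AL against wt AL), 11 and 2 (Ercc1 DR against Ercc1 AL) and 19 and 3 (Ercc1 DR against wt AL). As deposited, without rescaling, 6 were higher and 1 lower with a median ratio of 0.42 in the comparison of Ercc1 AL with wt AL, 37 and 1 with 0.94 between the mutants, and 62 higher with 1.403 in the comparison of Ercc1 DR with wt AL. Scaling to summed FPKM, leaving out the 100 most abundant genes, gave medians of -0.29, 2.15 and 1.87. Between the mutants 75 were then higher and 1 lower, against 51.5% and 1.69% of all genes. In Ercc1 DR against wt AL 70 were higher and 1 lower, against 40.8% and 5.66%. That scaling moved the median of all genes to -0.17, 1.03 and 0.81. Scaling to official symbols gave medians of 0.57 in both comparisons with Ercc1 DR. With a 1.5-fold threshold, 4 were higher and 5 lower in Ercc1 AL against wt AL, beside 6.09% and 11.2% of all genes. Between the mutants 43 and 4 were, beside 9.64% and 23.4%. In Ercc1 DR against wt AL 42 were higher, beside 16.5%. A pseudocount of 0.1 gave 3 higher in Ercc1 AL against wt AL, beside 3.62% of all genes. At least 5 FPKM, or leaving out isoforms of other tissues and proteins that are not subunits, each gave 0 higher there and 0 lower between the mutants. Of all genes with at least 5 FPKM, 5.93% were higher and 19.8% lower in these comparisons. Leaving out members whose span overlaps another gene gave 1 lower between the mutants. Leaving out members with at least 20% of 50-mers shared was an alternative chosen after seeing the data. Against wt AL it gave 1 of 60 lower in Ercc1 AL and 11 of 59 higher in Ercc1 DR. Of all genes 4.9% and 6.02% were. The cause was not tested. The sign of the members' median changed as deposited in Ercc1 AL against wt AL, where it was near 0, and in none of the comparisons with Ercc1 DR. The members' median minus that of all genes ranged over 10 alternatives from -0.12 to 0.08, from 0.49 to 1.12 and from 0.42 to 1.05. Atp5g1 kept its 2-fold difference in Ercc1 AL against wt AL under 7 of 7 alternatives and Atp5g2 under 6 of 7. In Ercc1 DR against wt AL, Atp5g2, Atp5o and Cox7a1 kept theirs under 6 of 7. No paired analysis was possible because each group had 1 library, and for the same reason no library could be left out.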

Other observations

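Summed over the marker list, endothelial genes were at 30.1 (wt AL), 23.9 (Ercc1 AL) and 13.0 FPKM (Ercc1 DR), with Gpr182 alone at 10.5, 5.29 and 1.49 FPKM, in the same order neutrophil genes at 8.04, 5.86 and 2.90 FPKM, most of it Mpo in wt AL and Ercc1 AL, and Kupffer cell and macrophage genes at 15.8, 20.1 and 13.6 FPKM. Stellate cell genes summed to 19.6, 32.3 and 37.2 FPKM, most of it Dcn at 13.5, 24.5 and 30.8 FPKM, whereas Reln, at 2.92, 3.58 and 2.67 FPKM, was lowest in Ercc1 DR. Erythroid genes summed to 174, 109 and 168 FPKM, most of it Hba-a2 at 145, 72.3 and 151 FPKM. Alas2 was highest in Ercc1 AL, at 3.10, 14.8 and 2.50 FPKM, and Hbb-b1 (4.28, 4.73 and 1.80 FPKM) and Hbb-b2 (20.7, 16.4 and 13.3 FPKM) were lowest in Ercc1 DR. Bile duct genes summed to 6.52, 4.44 and 4.78 FPKM and fat cell genes to 2.18, 4.35 and 5.05 FPKM, most of it Fabp4. No T, B or NK cell marker reached 1 FPKM. The part of these cells in the levels of the respiratory chain was not tested.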
